A study of Mus musculus with 6 samples.

Results

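The genes described here were 40 genes of the actin contractile machinery, the ROCK pathway, and the SRF and YAP transcription programs, found by gene symbol among the 52323 genes of the count table. All 40 were found and all 40 passed the filter on low counts, as did 19135 genes in all. They were measured by bulk RNA-seq in damaged hepatocytes (dHeps) on day 16 of culture. The mice carried Rosa-LSL-tdTomato and had received AAV-TBG-Cre, in which the liver-specific TBG promoter drives Cre, so that hepatocytes gain the tdTomato label. Their livers were injured with CCl4 (carbon tetrachloride), a liver toxin. The cells were isolated by perfusion with collagenase and Pronase and kept on collagen in serum-free Hepatocyte Maintenance Medium (Lonza), with no sort for the label described for these libraries. The study used mice on a C57BL/6 background, aged 8 to 10 weeks at labelling, and its CCl4 injections ran for 12 weeks in mice of both sexes. The sex of the mice behind each library was not given in the sources used here. The DMSO group received the solvent. The 3C group received 50 µM CID755673, a protein kinase D inhibitor, 2 µM GSK429286A, a ROCK inhibitor, and 5 µM ETC-1002. The 5C group received the same 3 compounds with 5 µM salidroside and 2 µM forskolin, which activates adenylate cyclase. There were 2 libraries for each group. The labels did not say whether the 2 came from separate animals or cultures, so the p-values measure the spread between these samples, which may be technical.

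ROCK1 and ROCK2 are kinases switched on by the small GTPase RhoA. They raise phosphorylation of the myosin light chain, partly by inhibiting the myosin phosphatase, and so drive contraction of actin and myosin filaments. Actin also feeds back on transcription. When monomeric actin is used up in filaments, the coactivators MRTF-A and MRTF-B enter the nucleus and, with SRF, switch on actin and smooth muscle contractile genes through a DNA element called the CArG box. Tension on the cytoskeleton likewise lets YAP and TAZ enter the nucleus, where they act through TEAD factors on genes such as Ccn1, Ccn2 and Ankrd1. In the liver these programs are best known from activated stellate cells, the contractile myofibroblasts of fibrosis, in which Acta2 is the standard marker, and YAP is also known for its part in hepatocyte dedifferentiation and liver growth. Both cocktails held the ROCK inhibitor, and the comparisons asked how transcripts of these programs differed between cells with and without it, together with the other compounds. ROCK activity, filament state and the location of YAP were not measured here.

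The 250 bases before the annotated transcript start are shown for 4 members. At an adjusted p under 0.05 in edgeR's test, Acta2 and Tagln fell in both cocktails, Ccn1 fell in 3C only, and Srf changed in neither. No member that rose is among them. Each of these 4 windows holds an SRF or TEAD motif, as did 18 of the 38 members searched. Sequence and starts came from the mouse reference genome GRCm39 with the GENCODE annotation, and each run is written 5′ to 3′ on the strand of the gene. Capitals mark CArG boxes and the TEAD motif GGAATG, in Ccn1 as its reverse complement.

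Acta2 (GRCm39, chr19:34232991-34233240, minus strand): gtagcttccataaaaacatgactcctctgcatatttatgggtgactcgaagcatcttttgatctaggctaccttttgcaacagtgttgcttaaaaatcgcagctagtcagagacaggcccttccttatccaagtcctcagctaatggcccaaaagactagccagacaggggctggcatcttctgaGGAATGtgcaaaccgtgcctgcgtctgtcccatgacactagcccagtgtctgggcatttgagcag

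Tagln (GRCm39, chr9:45847405-45847654, minus strand): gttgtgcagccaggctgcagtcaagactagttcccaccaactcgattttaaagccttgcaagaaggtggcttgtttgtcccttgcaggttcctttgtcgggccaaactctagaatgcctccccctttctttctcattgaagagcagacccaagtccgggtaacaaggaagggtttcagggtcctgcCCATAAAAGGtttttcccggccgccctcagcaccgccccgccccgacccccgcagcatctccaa

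Srf (GRCm39, chr17:46867120-46867369, minus strand): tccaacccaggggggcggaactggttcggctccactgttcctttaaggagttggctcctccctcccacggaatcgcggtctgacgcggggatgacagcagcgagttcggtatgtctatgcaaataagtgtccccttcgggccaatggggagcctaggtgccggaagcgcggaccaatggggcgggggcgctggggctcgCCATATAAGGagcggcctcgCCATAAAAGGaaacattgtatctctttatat

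Ccn1 (GRCm39, chr3:145355739-145355988, minus strand): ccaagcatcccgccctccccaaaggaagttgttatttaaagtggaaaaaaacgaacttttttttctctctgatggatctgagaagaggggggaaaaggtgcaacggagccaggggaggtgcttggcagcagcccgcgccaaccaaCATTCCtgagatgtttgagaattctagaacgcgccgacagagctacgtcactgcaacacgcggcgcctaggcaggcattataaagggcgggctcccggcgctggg

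A CArG box, searched on both strands, was found in this window in 303 of 21768 protein-coding genes (1.39%) and in 4 of the 38 members searched. These were Srf, which held 2, and Tagln, Cnn2 and Vcl. The TEAD motif, also searched on both strands, was found in 2636 windows (12.1%) and in 15 of these members, among them Acta2, Ccn1, Yap1 and Amotl2, which held 2. Vcl was the one member with both motifs. Of 11 smooth muscle contractile genes, 1 held a CArG box and 5 the TEAD motif. Of the 4 YAP target genes searched, 0 held a CArG box and 2 the TEAD motif. A CArG box was counted only as CCWWWWWWGG, where W is A or T, so variants with any other base were missed. The window follows the annotated start used for each gene, and windows at other starts were not searched. A gene with no match here may therefore hold CArG boxes. A match describes these letters in this window and is not evidence of binding, and elements further away were not searched.

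**Figure D1:**
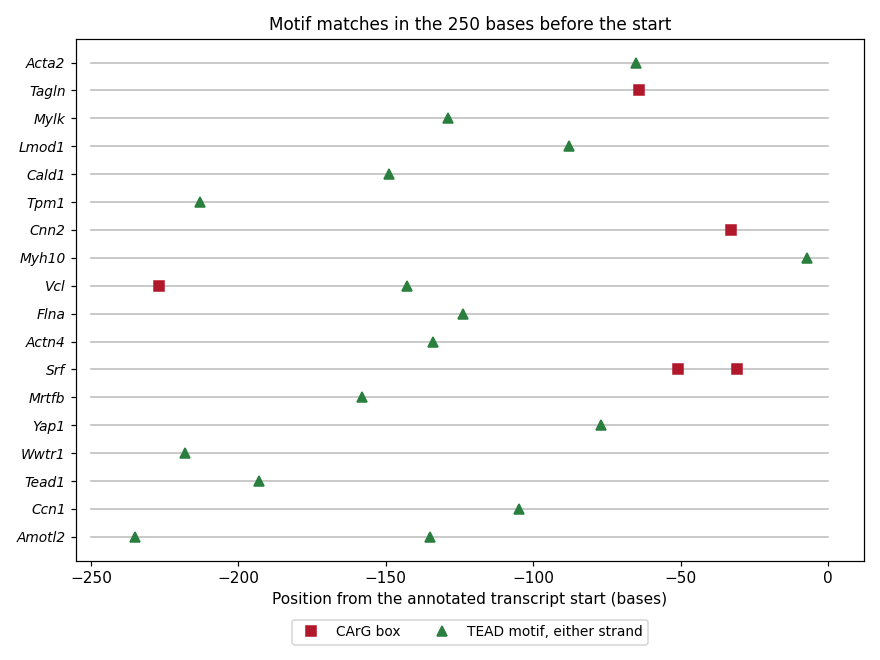
Motif matches in the 250 bases before the annotated start of the 18 members with at least 1 match. The horizontal axis gives the distance in bases from the start to the first base of the match, squares are CArG boxes and triangles are TEAD motifs on either strand. CArG boxes lie within 64 bases of the start in Tagln, Cnn2 and Srf and 227 bases away in Vcl.

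The libraries held 65916573 to 69245895 estimated counts, so depth differed little between groups. Values are given as CPM, counts scaled to the library total, which compare 1 gene or 1 list between libraries. Levels per length of different members are compared in FPKM. With 2 libraries in each group, an absence of overlap is weak evidence and only describes the values. Actb, for instance, did not overlap between 5C and 3C at a log2 fold change of -0.03. How often groups did not overlap over all genes is not given here. The 40 members took 1.42% to 1.49% of the counts in every library. Markers of other cell types were present. Summed over 15 macrophage markers, the level was 13555 to 14570 CPM in DMSO, 4807.6 to 4808.3 in 3C and 3185.6 to 3233.2 in 5C. The 12 stellate cell and fibroblast markers summed to 7672 to 9001 CPM in DMSO, 7057 to 7140 in 3C and 11517 to 12535 in 5C. For 12 markers of smooth muscle and pericytes, of which Pln was at 0 in every DMSO and 5C library, the sums were 216 to 234, 224 to 237 and 266 to 268 CPM. Hepatocyte markers, 10 in number, summed to 3416 to 3642 CPM in DMSO, 14617 to 15481 in 3C and 15100 to 20552 in 5C. The 7 mesothelial markers summed to 974 to 1187 CPM in DMSO, 1266 to 1407 in 3C and 2313 to 2416 in 5C, with 7 higher in 5C than in DMSO and 5 higher in 5C than in 3C. Of 9 endothelial markers tested, 6 rose and 2 fell in 5C and 4 rose and 2 fell in 3C, and their sums were 353 to 376, 96.6 to 132 and 156 to 241 CPM. Of 8 cholangiocyte markers, 6 rose in 3C, and 5 rose and 1 fell in 5C. In bulk samples, fewer cells of a type and less RNA per cell cannot be told apart, and the part of these cell types in the results was not tested.

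Some members cannot be read cleanly. At least 10% of the 50-base words of their transcripts occurred in other genes for Actg1 (83.9%), Myl6 (74.5%), Lats2 (53.5%, shared with Gm49361), Rhoa (22.8%), Actb (14.2%) and Tpm4 (11.9%). Gene copies with near-identical sequence could share their counts. In 6 members at least 20% of exon bases were overlapped by a gene on the opposite strand, most of all in Tagln (66.7%, by Gm48529 and Pcsk7), and the strand setting of the counting was not given in the sources used here. The partner Pcsk7 was steady at 32.1 to 36.5 CPM over the 6 libraries, and Gm48529 reached at most 7.86 CPM. The others were Ccn2 (36.5%), Cnn1 (35.1%), Vcl, Ankrd1 and Ccn1. Elof1, opposite Cnn1, was at 31.7 to 41.7 CPM over the libraries, above Cnn1 itself. Gm15270, opposite Ccn2, was at 8.31 to 13.4 CPM in DMSO, 2.08 to 2.21 in 3C and 9.99 to 11.2 in 5C.

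Against DMSO, 6 of 11 smooth muscle contractile transcripts were lower in 3C, while Mylk, the kinase that phosphorylates myosin light chain, and Myh10, the heavy chain of non-muscle myosin IIB, were higher. At an adjusted p under 0.05, 16 of the 40 members (40%) changed, 4 higher and 12 lower, where 24.5% of all genes tested were called, 12.7% higher and 11.8% lower. Among the 11575 genes with at least as many CPM as Cnn1, the member with the fewest, the share called was 33.5%. The median log2 fold change was -0.11 over the members and 0.01 over all genes. The 6 members changed over 2-fold (15%, against 9.45% of all genes) were Mylk and Myh10, which rose, and Acta2, Actg2, Tagln and Lmod1, which fell. At the limit on adjusted p alone, these calls were kept when any 1 library was left out. The rise of Myh10 was under 2-fold without DMSO replicate 2 (log2 fold change 0.97). The other calls were each lost without at least 1 library. The count of changed members was 9 when 3C replicate 1 was left out and 8 when 3C replicate 2 was.

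Against DMSO, 5C changed 22 members (55%), 10 higher and 12 lower, where 28.7% of all genes tested and 38.0% of the genes with at least as many CPM as Cnn1 were called. Over all genes, 15.6% were higher and 13.1% lower. The median log2 fold change was -0.05 over the members and 0.00 over all genes. The members changed over 2-fold were 4 (10%, against 11.7% of all genes). Mylk and Myh10 rose, and Actg2 and Myh11, the smooth muscle myosin heavy chain, fell. Leaving out 5C replicate 1 gave 7, and leaving out 5C replicate 2 gave 2 (Mylk and Myh10). Of the 22 calls, 13 were kept when any 1 library was left out. The DMSO libraries served for both cocktails, so the values against DMSO share their controls.

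Between the cocktails, Acta2, Tagln, Myh10 and Vcl were among 8 members higher in 5C than in 3C, and Ankrd1 was lower. Of the 40 members, 9 changed (22.5%), against 12.7% of all genes and 18.4% of those with at least as many CPM as Cnn1. The other members higher in 5C were Tpm1, Cnn2, Ccn1 and Lats2, beside 7.33% of all genes higher and 5.33% lower. The median log2 fold change was 0.14 over the members and -0.01 over all genes. By edgeR's quasi-likelihood test, 0 members passed the test with a change over 2-fold, as 3.01% of all genes did. The count was also 0 with DESeq2. The largest member change in the main fit was 0.91 on the log2 scale (Myh10), so whatever the p, none could pass the 2-fold limit. Leaving out 3C replicate 1 put Myh10 past it, and leaving out 5C replicate 2 put Tagln past it. The count of 9 changed members was 20 with DESeq2, 19 in a fit to the 4 libraries of these groups, and 14 both with at least 10 counts in every library and with counts divided by 4. It was 18 and 17 without DMSO replicate 1 or 2, which enter this comparison through the filter, the normalization and the shared estimate of spread, and 6 without either 3C library.

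**Figure D2:**
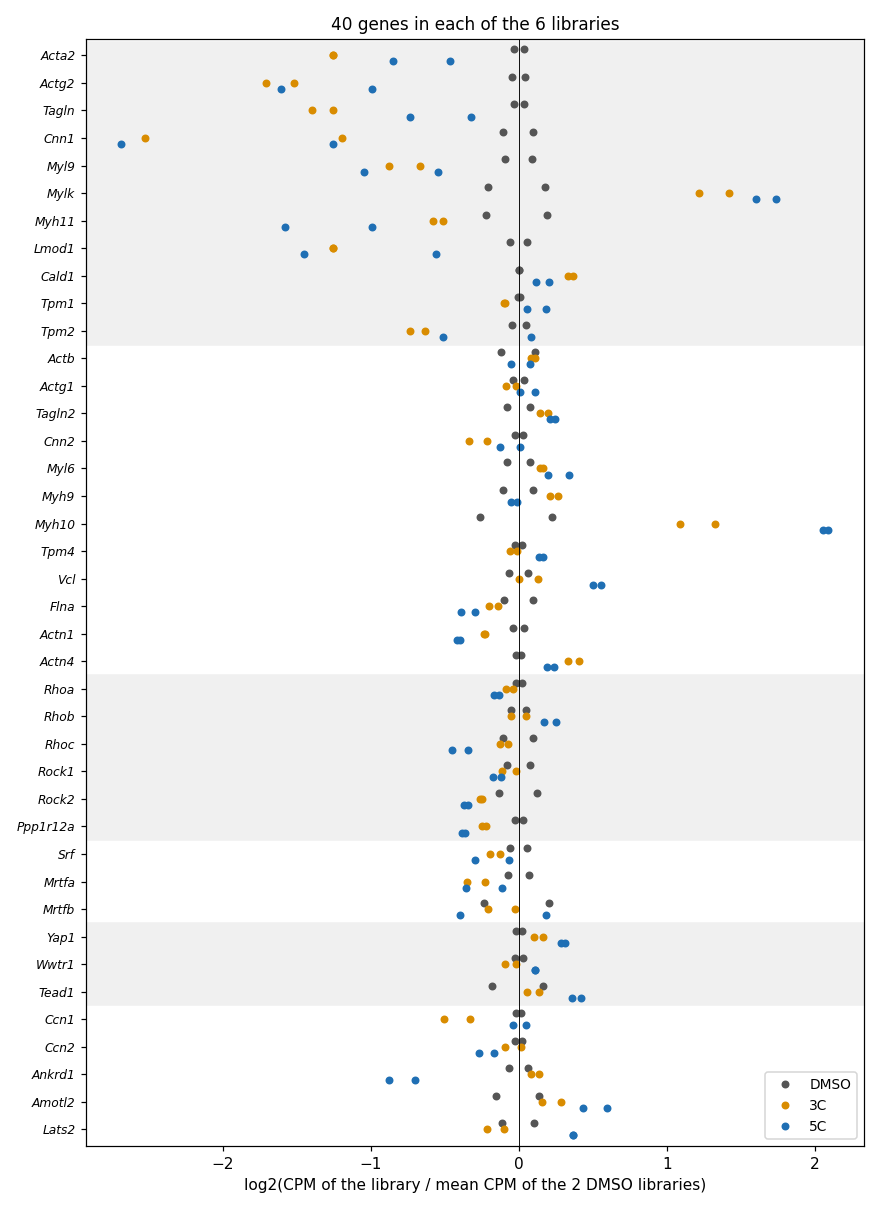
Each of the 40 members in each of the 6 libraries, as log2 of its CPM over the mean CPM of the 2 DMSO libraries (horizontal axis), with roles separated by shading. From top to bottom the roles are smooth muscle contractile genes, non-muscle actin cytoskeleton genes, ROCK pathway genes, SRF and its coactivators, YAP effectors and YAP target genes. The smooth muscle contractile genes spread furthest, and Mylk and Myh10 stand to the right in all 4 cocktail libraries.

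Of the 11 smooth muscle contractile genes, 6 fell and 2 rose in 3C (72.7%), and 6 fell and 1 rose in 5C (63.6%). Of all genes tested, 24.5% changed in 3C (11.8% lower) and 28.7% in 5C (13.1% lower). Among genes with at least as many CPM as Cnn1, 33.5% and 38.0% changed. Of the 11 smooth muscle and pericyte markers tested, 6 rose and 1 fell in 3C and 5 rose and 1 fell in 5C, and of the 12 stellate cell and fibroblast markers, 7 rose and 2 fell in 3C and 8 rose and 0 fell in 5C. The stellate cell and fibroblast markers that fell in 3C were Col1a1 (log2 fold change -0.65) and Col3a1 (-0.62), which with Col1a2 hold most of that sum. The smooth muscle and pericyte marker that fell in both cocktails was Des, desmin. Its level was 83.2 and 99.4 CPM in DMSO, 41.7 and 50.2 in 3C and 54.4 and 55.0 in 5C. Acta2, smooth muscle alpha-actin (chromosome 19, 34217737 to 34232990, minus strand, 9 exons), was at 336 and 321 CPM in DMSO, 138 and 138 in 3C and 238 and 182 in 5C. The 3 groups did not overlap, with DMSO highest and 3C lowest. It fell 2.44-fold in 3C (log2 fold change -1.29 ± 0.11, SE, adjusted p = 3.77e-05) and 1.55-fold in 5C (-0.63 ± 0.11, adjusted p = 0.00195), and was 1.58-fold higher in 5C than in 3C (adjusted p = 0.00447). Tagln, transgelin, an actin-binding protein of smooth muscle (chromosome 9, 45840909 to 45847404, minus strand, 5 exons), followed the same order. Its level was 244.5 and 233 CPM in DMSO, 100.1 and 90.7 in 3C and 191 and 143 in 5C. The fall was 2.56-fold in 3C (adjusted p = 7.16e-05) and 1.41-fold in 5C (adjusted p = 0.0132), and Tagln was 1.81-fold higher in 5C than in 3C (adjusted p = 0.00272). The call in 5C was lost without DMSO replicate 1 (adjusted p = 0.0757) and without DMSO replicate 2 (0.0566), with log2 fold changes of -0.48 and -0.52.

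Low-abundance smooth muscle genes fell as well. Actg2, enteric smooth muscle gamma-actin, was at 11.8 and 12.5 CPM in DMSO, 4.24 and 3.72 in 3C and 6.12 and 3.99 in 5C, so that the cocktail groups overlapped each other and not DMSO. It fell 3.12-fold in 3C (adjusted p = 0.000689) and 2.38-fold in 5C (adjusted p = 0.00263). Without 5C replicate 2 its fall in 5C was under 2-fold (log2 fold change -0.99). Lmod1, leiomodin, which nucleates actin filaments in smooth muscle, had 14.6 and 13.5 CPM in DMSO, 5.89 and 5.89 in 3C and 9.54 and 5.14 in 5C. It fell 2.44-fold in 3C (adjusted p = 0.00548) and 1.89-fold in 5C (adjusted p = 0.0233), and the call in 5C was lost without DMSO replicate 1 (0.0867), DMSO replicate 2 (0.0566) or 5C replicate 2 (0.0671). The 2 libraries of 5C lay further apart for Lmod1, Actg2 and Tagln than those of 3C, with replicate 1 the higher.

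Myh11 was at 32.3 and 24.3 CPM in DMSO, 19.8 and 18.9 in 3C and 14.3 and 9.49 in 5C. It was the one smooth muscle gene named here whose lowest values were in 5C with no overlap with 3C. It fell 2.36-fold in 5C (log2 fold change -1.24 ± 0.20, adjusted p = 0.0016), and under 2-fold without 5C replicate 2 (-0.99). In 3C its log2 fold change was -0.58 (95% interval -1.02 to -0.14, adjusted p = 0.061), and between 5C and 3C it was -0.66 (adjusted p = 0.063). The 3C call was gained without DMSO replicate 2 (adjusted p = 0.0309). Myl9, the regulatory light chain of smooth muscle myosin, fell in both cocktails, with log2 fold changes of -0.80 in 3C and -0.75 in 5C. Without 3C replicate 2 its adjusted p in 3C was 0.0503.

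Cnn1, calponin, had the fewest counts of any member and the largest SE, and the overlapping gene Elof1 had more CPM than Cnn1 in every group. It had 10.7 and 9.33 CPM in DMSO, 4.38 and 1.74 in 3C and 4.21 and 1.56 in 5C. All 4 cocktail values were below both DMSO values, but the fitted log2 fold changes of -1.75 in 3C (95% interval -3.15 to -0.34, adjusted p = 0.0814) and -1.78 in 5C (-3.20 to -0.37, adjusted p = 0.068) did not pass the test. Without 3C replicate 1 the 3C value was -2.55 (adjusted p = 0.0361), and without 5C replicate 1 the 5C value was -2.65 (adjusted p = 0.0228). The tropomyosins, which lie along actin filaments, moved less. Tpm2 fell in 3C by 0.71 on the log2 scale (adjusted p = 0.018), a call lost without any of the 4 libraries compared (adjusted p of 0.0774 to 0.12), and had -0.17 in 5C, where its libraries stood at 62.4 and 41.4 CPM and leaving out the higher one, replicate 1, gave -0.48 (adjusted p = 0.0148). Tpm1 passed neither comparison with DMSO (-0.13 in 3C and 0.14 in 5C).

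Mylk rose in both cocktails. The gene for myosin light chain kinase (chromosome 16, 34565580 to 34822790, plus strand, 32 exons) was at 89.5 and 68.5 CPM in DMSO, 211 and 183 in 3C and 240.4 and 263.5 in 5C. The 3 groups did not overlap. Mylk rose 2.45-fold in 3C (log2 fold change 1.29 ± 0.13, adjusted p = 0.00016) and 3.24-fold in 5C (1.69 ± 0.13, adjusted p = 2.81e-05). The difference between 5C and 3C, 0.40 (95% interval 0.12 to 0.69), did not pass the test (adjusted p = 0.0768, and 0.0169 without DMSO replicate 1). Cald1, caldesmon, which restrains actin-activated myosin in smooth muscle and in other cells, also rose in 3C, by 0.32 on the log2 scale (adjusted p = 0.00666). This call was lost without 3C replicate 1 (0.0825) or 3C replicate 2 (0.0616), and the value in 5C was 0.18 (adjusted p = 0.0687).

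**Figure D3:**
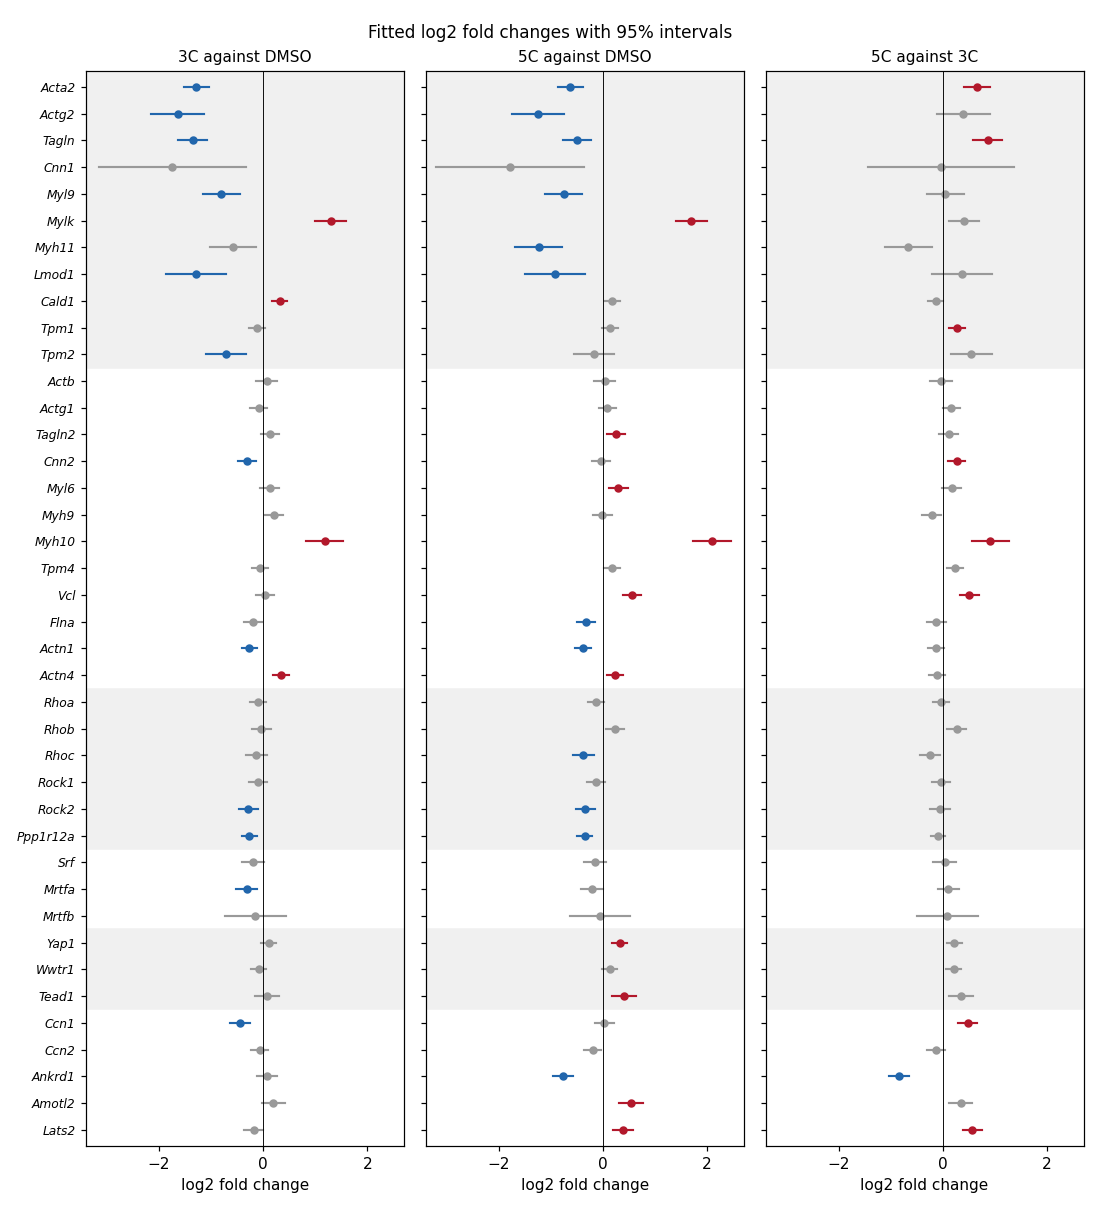
Fitted log2 fold changes (points, horizontal axis) of the 40 members with 95% intervals (lines) for each cocktail against DMSO and for 5C against 3C (right), in the same order and shading by role. Red marks genes higher and blue genes lower at an adjusted p under 0.05, and grey the rest. Red and blue number 4 and 12, 10 and 12, and 8 and 1.

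The 12 non-muscle actin cytoskeleton genes did not follow the smooth muscle genes. In 3C, 2 rose and 2 fell (33.3%), and in 5C, 5 rose and 2 fell (58.3%). Of all genes tested, 24.5% and 28.7% were called. Among genes with at least as many CPM as Cnn1, the shares were 33.5% and 38.0%. Actb, beta-actin (chromosome 5, 142888870 to 142892509, minus strand, 6 exons), was at 1836 and 2154 CPM in DMSO, 2148 and 2115 in 3C and 2103 and 1921 in 5C. All 4 cocktail libraries lay within the range of the 2 DMSO libraries. Its log2 fold changes were 0.06 in 3C (95% interval -0.15 to 0.27, adjusted p = 0.703) and 0.03 in 5C (-0.18 to 0.24, adjusted p = 0.858), and the signs turned in some other fits. Actg1, cytoplasmic gamma-actin, had -0.09 and 0.08. Changes of Actb of up to 0.27 on the log2 scale thus lie within the intervals.

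Myh10 had the largest rise of any member in 5C. The gene (chromosome 11, 68582385 to 68707470, plus strand, 41 exons) was at 119 and 84.7 CPM in DMSO, 255 and 216 in 3C and 433 and 422 in 5C. The groups did not overlap, and the order was DMSO, 3C, 5C. Myh10 rose 2.27-fold in 3C (log2 fold change 1.18 ± 0.15, adjusted p = 0.00109) and 4.27-fold in 5C (2.09 ± 0.15, adjusted p = 5.28e-05), and was 1.88-fold higher in 5C than in 3C (adjusted p = 0.00778). Without DMSO replicate 2 its rise in 3C was under 2-fold (0.97). The difference between the cocktails was lost without 5C replicate 1 (adjusted p = 0.062) or 5C replicate 2 (0.0724), and stood at 0.05 without 3C replicate 2. Myh9, the heavy chain of non-muscle myosin IIA, had log2 fold changes of 0.20 in 3C (adjusted p = 0.0924) and -0.01 in 5C (adjusted p = 0.94). Without DMSO replicate 1 Myh9 was called in 3C, at 0.30 (adjusted p = 0.0139).

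Among the remaining non-muscle genes, Vcl, vinculin of focal adhesions, was 1.46-fold higher in 5C than in DMSO (adjusted p = 0.000628) and 1.43-fold higher than in 3C (adjusted p = 0.00313), and had a log2 fold change of 0.04 in 3C. Both 5C calls of Vcl were kept when any 1 library was left out. The actin crosslinkers went different ways. Actn1, alpha-actinin 1, fell in both cocktails (-0.27 in 3C and -0.39 in 5C), and Actn4, alpha-actinin 4, rose in both (0.34 and 0.23). Of these 4 calls, the fall of Actn1 in 5C was the one that no left-out library removed. The adjusted p of Actn1 in 3C was 0.142 without 3C replicate 1, and that of Actn4 was 0.0838 in 3C without 3C replicate 1 and 0.112 in 5C without 5C replicate 1. Flna, filamin A, fell in 5C (-0.32, adjusted p = 0.013, and 0.0849 without 5C replicate 2). Tagln2 and Myl6 rose in 5C by 0.25 and 0.29 on the log2 scale, with adjusted p-values of 0.0411 and 0.0259. Leaving out a library raised these to as much as 0.143 for Tagln2 (without DMSO replicate 1) and 0.141 for Myl6 (without 5C replicate 1). Cnn2 fell in 3C (-0.31) and was higher in 5C than in 3C (0.27, adjusted p = 0.0466), and these adjusted p-values were 0.169 and 0.356 without 3C replicate 2.

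Measured in FPKM within the actins and within the myosin heavy chains, the smooth muscle members made up a smaller share in the cocktails than in DMSO. Acta2 made up 8.71% and 7.66% of the summed FPKM of the 4 actins in DMSO, 3.56% and 3.53% in 3C and 5.75% and 4.84% in 5C, while Actb and Actg1 together held the rest but for under 0.5% of Actg2. Among Myh9, Myh10 and Myh11, the share of Myh10 was 8.89% and 7.44% in DMSO, 16.0% and 13.4% in 3C and 27.4% and 27.4% in 5C. The share of Myh9 was 88.4% and 90.1%, 82.6% and 85.3%, and 71.6% and 71.9%. That of Myh11 was 2.74% and 2.43% in DMSO and 1.06% and 0.73% in 5C. The tropomyosins Tpm1, Tpm2 and Tpm4 were less clear. Tpm2 held 10.25% and 9.414% in DMSO, 6.541% and 6.965% in 3C and 9.463% and 6.85% in 5C, so 5C overlapped DMSO. These shares describe transcripts as counted, and the shared sequence of Actb and Actg1 applies to them.

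**Figure D4:**
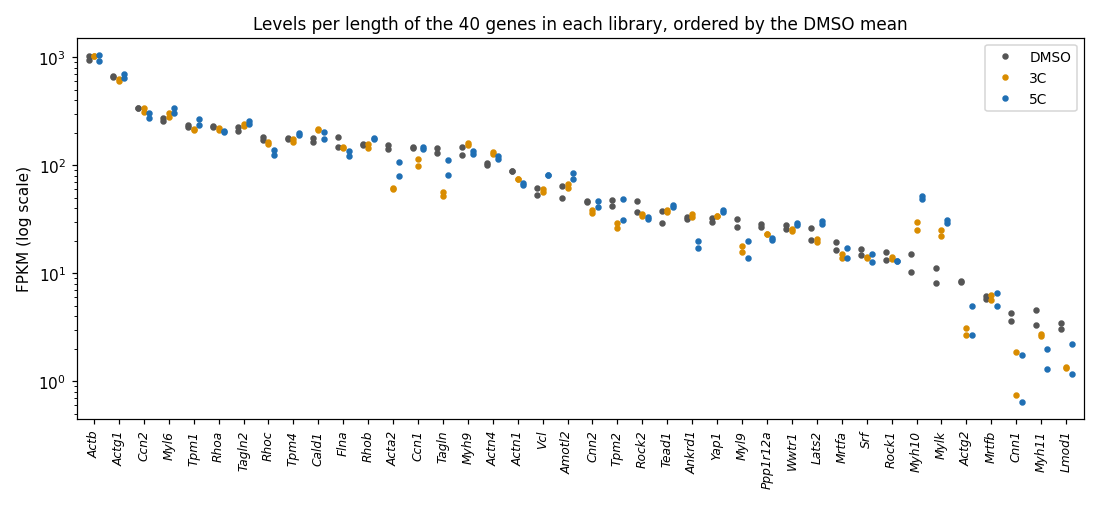
Level of each member in each library in FPKM on a log axis, with genes ordered by the DMSO mean. Actb is highest in all 3 groups, and Myh10 climbs from rank 34 of 40 in DMSO to rank 27 in 3C and 21 in 5C, while Acta2 goes from rank 13 to 18 and 17.

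The ROCK pathway members, which are both kinases, Ppp1r12a and the GTPases Rhoa, Rhob and Rhoc, changed little. None of the 6 rose at the threshold in either cocktail, 2 fell in 3C (33.3%, beside 24.5% of all genes called) and 3 fell in 5C (50%, beside 28.7%), and the falls were at most 1.30-fold. Rock1 was at 105 and 94.0 CPM in DMSO, 91.8 and 98.2 in 3C and 88.0 and 91.6 in 5C, with log2 fold changes of -0.10 in 3C (95% interval -0.27 to 0.08, adjusted p = 0.432) and -0.13 in 5C (-0.30 to 0.05, adjusted p = 0.265). Rock2 was at 381 and 320 CPM in DMSO, 292 and 295 in 3C and 276 and 271.5 in 5C. All 4 cocktail libraries were below both DMSO libraries for Rock2. It fell by 0.29 on the log2 scale in 3C (adjusted p = 0.0349) and by 0.34 in 5C (adjusted p = 0.0148). Without DMSO replicate 1 the values were -0.17 (adjusted p = 0.136) and -0.22 (0.0515), and other left-out libraries raised the adjusted p to at most 0.193 and 0.0674.

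Ppp1r12a, the targeting subunit of myosin phosphatase and a substrate of ROCK, fell in 3C (-0.27, adjusted p = 0.0125) and in 5C (-0.35, adjusted p = 0.00238). The fall in 3C was lost without 3C replicate 1 (0.101) or 3C replicate 2 (0.131), and the fall in 5C was kept throughout. Of the GTPases, Rhoc fell in 5C (-0.38, adjusted p = 0.0101, and 0.0636 without 5C replicate 2). Rhoa, the main activator of ROCK, had -0.09 in 3C and -0.13 in 5C, and Rhob, whose transcript is short-lived and inducible, had -0.03 and 0.23 (adjusted p = 0.0542 in 5C, and 0.0309 without DMSO replicate 2). Between 5C and 3C, 0 of the 6 genes passed edgeR's test, beside 12.7% of all genes and 18.4% of those with at least as many CPM as Cnn1. With so few genes, this count is near those shares.

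Srf and its coactivators were steady or slightly lower. Srf itself (chromosome 17, 46857767 to 46867119, minus strand, 7 exons), whose window above holds 2 CArG boxes, was at 46.4 and 42.9 CPM in DMSO, 40.9 and 39.1 in 3C and 42.7 and 36.3 in 5C. All 4 cocktail values lay below the lower DMSO library. The log2 fold changes of -0.19 (95% interval -0.41 to 0.02, adjusted p = 0.194) and -0.16 (-0.37 to 0.06, adjusted p = 0.266) did not pass the test. Mrtfa, the gene of MRTF-A, fell in 3C (-0.32, adjusted p = 0.0311), a call lost without DMSO replicate 1 (0.143), 3C replicate 1 (0.0815) or 3C replicate 2 (0.225), and had -0.21 in 5C. Mrtfb had -0.15 and -0.06, with an SE of 0.24 in both.

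Of the 3 YAP effectors, Yap1 and Tead1 rose in 5C and none passed in 3C. Over all genes tested, 28.7% were called in 5C and 24.5% in 3C, or 38.0% and 33.5% of those with at least as many CPM as Cnn1. Counts among so few genes say little beside these shares. Yap1 was at 140.0 and 136 CPM in DMSO, 155 and 148 in 3C and 172 and 168 in 5C. The groups did not overlap, with 3C between the others. Yap1 rose 1.25-fold in 5C (log2 fold change 0.32 ± 0.06, adjusted p = 0.00472), with 0.10 in 3C (adjusted p = 0.3) and 0.22 between 5C and 3C (adjusted p = 0.0569). Tead1, the DNA-binding partner, rose 1.33-fold in 5C (adjusted p = 0.0153, and 0.088 without 5C replicate 2). Wwtr1, the gene of TAZ, had -0.09 and 0.13.

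The 5 YAP target genes did not move as a group. Ccn1 (chromosome 3, 145352720 to 145355738, minus strand, 5 exons), a secreted matrix protein formerly called Cyr61, was at 317 and 325 CPM in DMSO, 226 and 255 in 3C and 313 and 332 in 5C. Only the 3C libraries stood apart. Ccn1 fell 1.36-fold in 3C (log2 fold change -0.45 ± 0.08, adjusted p = 0.00379), had 0.03 in 5C (95% interval -0.16 to 0.21), and was 1.39-fold higher in 5C than in 3C (adjusted p = 0.00622). Without 3C replicate 1 the fall in 3C was -0.36 (adjusted p = 0.0584) and the difference between the cocktails was 0.39 (0.0829).

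Ccn2 (chromosome 10, 24471333 to 24474900, plus strand, 5 exons), connective tissue growth factor and the member with the third-highest FPKM in DMSO, was at 876 and 907 CPM in DMSO, 837 and 901 in 3C and 792 and 739 in 5C. The 5C libraries were lowest. The log2 fold changes of -0.07 in 3C (adjusted p = 0.572) and -0.20 in 5C (95% interval -0.37 to -0.04, adjusted p = 0.0703) did not pass the test. Ankrd1 (chromosome 19, 36089352 to 36097506, minus strand, 9 exons), an ankyrin repeat protein of stretched muscle and a widely used YAP readout, was at 68.1 and 74.6 CPM in DMSO, 75.4 and 78.3 in 3C and 43.9 and 38.8 in 5C. It fell 1.70-fold in 5C against DMSO (log2 fold change -0.77 ± 0.09, adjusted p = 0.00017) and was 1.80-fold lower in 5C than in 3C (adjusted p = 0.000589), with 0.07 in 3C (adjusted p = 0.608).

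Amotl2 and Lats2, targets that feed back to restrain YAP, rose in 5C while Ankrd1 fell. Amotl2, an angiomotin that holds YAP outside the nucleus, rose 1.45-fold in 5C (adjusted p = 0.00322), with 0.19 in 3C (adjusted p = 0.208, and 0.0323 without DMSO replicate 1). Lats2, a kinase that phosphorylates YAP, rose 1.30-fold in 5C (adjusted p = 0.00683), had -0.19 in 3C (adjusted p = 0.142, and 0.0383 without DMSO replicate 2) and was 1.48-fold higher in 5C than in 3C (adjusted p = 0.00268). These calls of Amotl2, Lats2 and Ankrd1 in 5C were kept when any 1 library was left out. Of the words of Lats2, 53.5% were shared with Gm49361, so its counts are uncertain.

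**Figure D5:**
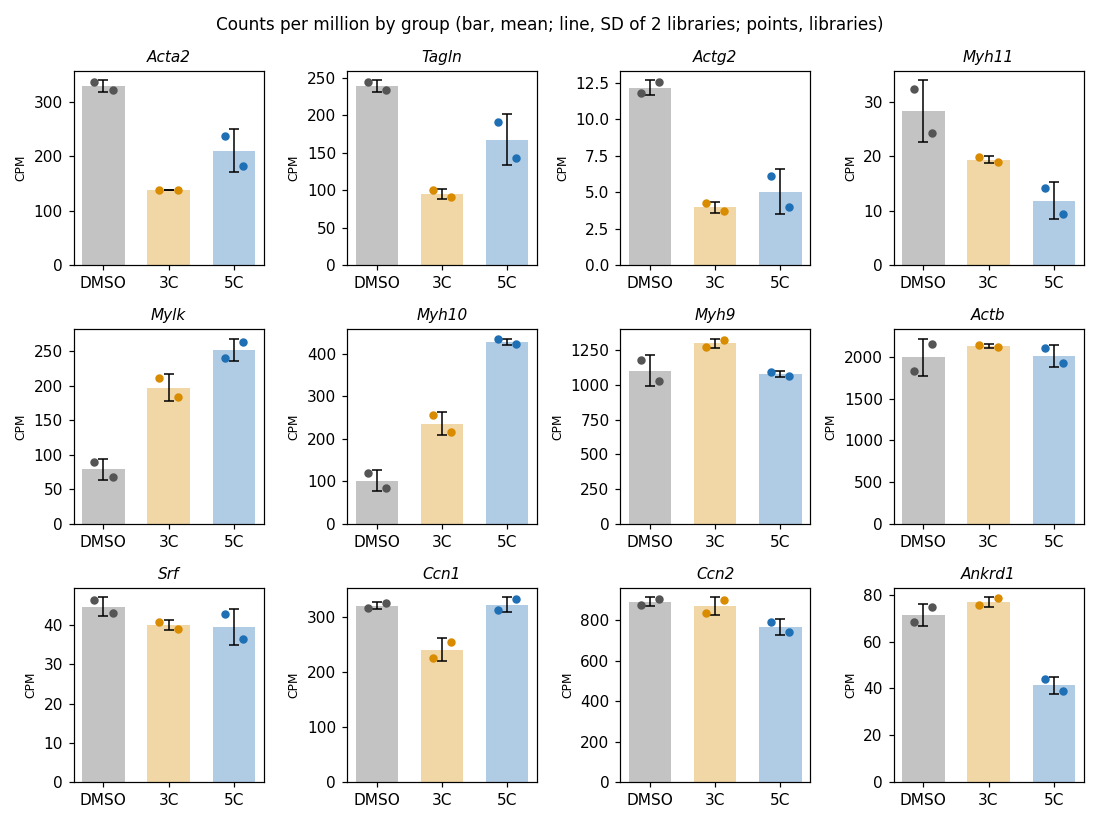
CPM of 12 members in the DMSO, 3C and 5C groups. Bars are means, lines the SD of 2 libraries and points the libraries, on linear axes that start at 0. Acta2 and Tagln are lowest in 3C, Mylk and Myh10 are lowest in DMSO, Ccn1 is lowest in 3C and Ankrd1 is lowest in 5C, while Actb, Srf and Ccn2 differ little.

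Other genes of the same pathways were counted from fixed lists that hold no member. The shares changed are read beside those of all genes, 24.5% for 3C and 28.7% for 5C against DMSO and 12.7% for 5C against 3C, or 33.5%, 38.0% and 18.4% among genes with at least as many CPM as Cnn1. Of 25 further SRF and MRTF target genes, 10 fell and 4 rose in 3C, 6 fell and 6 rose in 5C, and 9 were higher and 0 lower in 5C than in 3C, shares of 56%, 48% and 36%. Fosb, an immediate early gene, fell from 10.5 to 2.62 CPM in 3C (log2 fold change -2.04, adjusted p = 0.000698) and stood at 6.11 CPM in 5C, 1.27 above 3C on the log2 scale. The muscle LIM protein gene Fhl1 fell in both (-1.36 in 3C and -1.08 in 5C), and Flnc, filamin C, fell in 3C (-1.06). Csrp2 and Egr1 rose in 5C (0.83 and 0.82). Synpo2 and Smtn, which bind actin in smooth muscle, were higher in 5C than in 3C (1.04 and 0.72) and are also 2 of the smooth muscle and pericyte markers. Des, given above with those markers, is on both lists as well.

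Of 17 further YAP target genes, 5 rose and 5 fell in 3C, 5 rose and 4 fell in 5C, and 5 were higher and 3 lower in 5C than in 3C, shares of 58.8%, 52.9% and 47.1%, again beside 24.5%, 28.7% and 12.7% of all genes. Ccdc80, a matrix protein also made by fibroblasts, went from 591 CPM in DMSO to 1260.3 in 5C (log2 fold change 1.11, adjusted p = 4.85e-05), and Rbms3 and Arhgef17 rose by 1.01 and 0.81. The stellate cell and fibroblast marker sum was also highest in 5C, with 8 of the 12 markers higher than in DMSO and 0 lower, and its part in these values was not tested. Fjx1, Nuak2 and Tgfb2 rose in 3C (0.88, 0.79 and 0.68), and Fjx1 was 1.19 lower in 5C than in 3C on the log2 scale. Of 17 other Hippo pathway genes, 4 rose and 6 fell in 3C (58.8%), 5 rose and 4 fell in 5C (52.9%), and 3 were higher and 4 lower in 5C than in 3C (41.2%). Wwc1, the gene of the upstream regulator KIBRA, rose in both (1.27 in 3C and 0.87 in 5C). Amot rose in 3C (1.19) and was lower in 5C than in 3C (-0.83), and Vgll3, a TEAD cofactor, was higher in 5C than in 3C (1.16).

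Of 31 other genes of the ROCK pathway, 6 rose and 10 fell in 3C, 9 rose and 11 fell in 5C, and 3 were higher and 2 lower in 5C than in 3C. The shares were 51.6%, 64.5% and 16.1%, beside 24.5%, 28.7% and 12.7% of all genes. Rnd1 and Rnd3, atypical GTPases that oppose RhoA signaling, rose in 5C by 0.80 and 0.68 on the log2 scale (adjusted p = 0.000231 and 0.000254) and were higher than in 3C by 0.72 and 0.60. Diaph3, a formin, fell in 5C (-1.16, adjusted p = 0.0253). In 3C the named genes were Myl12b, a non-muscle myosin regulatory light chain, which rose (0.76), Rtkn, which rose (0.60), and Arhgdib, a GTPase inhibitor of blood cells, which fell (-0.90). The actin turnover genes, 15 in number, had 9 lower and 1 higher in 5C (66.7%), 5 lower and 1 higher in 3C (40%), and 2 lower and 2 higher in 5C than in 3C (26.7%). Capg, a capping protein abundant in macrophages, fell most, from 152 CPM to 70.7 in 3C (-1.14) and 54.9 in 5C (-1.45). Macrophage markers fell beside Arhgdib and Capg, with 13 of 15 lower by over 2-fold in each cocktail, and their part in these falls was not tested.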

How the data were processed

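RNA-seq libraries were made with the NEBNext Ultra kit. The submitters' processing notes name featureCounts, Subread, DESeq2 and the build GRCm39, with no roles or versions. The deposited count table holds estimated counts, whole numbers that the authors did not normalize. Low values had an excess at 4 (4816 entries, against 3121 at 3), so the counts per fragment are unknown. The deposited FPKM values were scaled by the authors for length and library total. Here all 6 libraries entered 1 model in edgeR 4.0.16 (R 4.3.3), with TMM normalization, filterByExpr and the robust quasi-likelihood F test, which left 3 residual degrees of freedom. P-values were adjusted by Benjamini-Hochberg over 19135 genes. A gene changed at an adjusted p under 0.05, and over 2-fold at an absolute log2 fold change above 1 as well. SE and 95% intervals follow from the F statistic. The steps were tested on simulated data.

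Alternatives were RLE and upper quartile normalization, other filters, DESeq2 1.42.0, fits to 4 libraries, a replicate block, limma 3.58.1 on log2(FPKM + 1) and log2(FPKM + 0.1), counts divided by 4 and leaving out each library. The members and lists were chosen with earlier results of these data known. Values in every library were given for members changed over 2-fold in any comparison and for Acta2, Actb, Srf, Rock1, Rock2, Yap1, Ccn1, Ccn2 and Ankrd1, and from each pathway list up to 3 changed genes of largest change were named per comparison. Values in every library for Cnn1, Tpm2 and the marker Des were added after these had been looked at. Some promoter windows are not reported here. The plots used matplotlib 3.10.9.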

Additional observations from a re-analysis of the deposited data

Results flagged for a closer look

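For 4 members the cocktails differed from DMSO in opposite directions and the difference between 5C and 3C passed edgeR's test. Ankrd1 had a log2 fold change of 0.07 in 3C and -0.77 in 5C, a difference of -0.84 (adjusted p = 0.000589). Lats2 had -0.19 in 3C and 0.38 in 5C, a difference of 0.57 (adjusted p = 0.00268). Ccn1 had -0.45 in 3C and 0.03 in 5C, a difference of 0.47 (adjusted p = 0.00622, and 0.0829 without 3C replicate 1). Tpm1 had -0.13 in 3C and 0.14 in 5C, a difference of 0.27 (adjusted p = 0.0314). The difference of Tpm1 was lost without any of the 4 libraries compared, with adjusted p-values of 0.0556 to 0.232. Of the 8 values against DMSO, 3 passed the test, those of Ankrd1 and Lats2 in 5C and of Ccn1 in 3C.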

How the results depend on the processing

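Each group had 2 libraries. The counts of changed members in 5C against DMSO (22) and 3C against DMSO (16) moved by less than 1.5 times under every alternative other than leaving out a library. That of 5C against 3C (9) became 14 with at least 10 counts in every library, 20 with DESeq2, 19 with the 4 libraries of these groups and 14 with counts divided by 4. With 1 library left out, the counts were 15 to 21, 8 to 17 and 6 to 18. Those over 2-fold (4, 6 and 0) were 2 to 7, 5 to 7 and 0 to 1. Where a group kept 1 library, that library was assumed to vary like the others. Same-numbered libraries did not deviate together (r = -0.03, 0.00 and 0.02), so the numbers share only a name. The replicate block gave 24, 18 and 11 changed and 5, 7 and 0 over 2-fold. Among the genes named by rule, no value that passed the test reversed. Among values that had not passed, limma on log2(FPKM + 1) and log2(FPKM + 0.1) turned Actb (-0.0051 and -0.0051) and Ccn1 (-0.0039 and -0.0040) in 5C against DMSO and Srf in 5C against 3C (-0.014 and -0.015). With 1 library left out, the values ranged from -0.092 to 0.16 for Actb and -0.034 to 0.083 for Ccn1 in 5C against DMSO, and from -0.061 to 0.20 for Actb and -0.0019 to 0.16 for Ankrd1 in 3C against DMSO. In 5C against 3C the ranges were -0.089 to 0.010 for Actb, -0.081 to 0.022 for Rock1, -0.14 to 0.73 for Lmod1 and -0.076 to 0.13 for Srf. Of 720 values of the 15 genes named by rule, 657 kept direction and side of the threshold, 22 lost the call, 24 gained it and 17 reversed. The causes were not tested.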
